A study of Saccharomyces cerevisiae with 8 samples.

Results

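The G2-only ORC events are the binding events of the origin recognition complex (ORC) in G2-phase that lay more than 50 bp from every ORC event of both replicates in G1-phase. They numbered 462 of the 3039 ORC events listed in G2 and of the 9293 events listed in all. The members were chosen by their position, so their distance from ORC in G1 is a description, as is anything bound to it, and no test was made with it. Events were listed in budding yeast W303 by ChIP-Exo, in which an exonuclease trims the precipitated DNA up to the cross-linked protein, and each event is a single base with a score written by the authors' event caller. ORC was precipitated through Orc2-FLAG in G2-phase (strain YC795, held in nocodazole, a drug that depolymerises microtubules) and in G1-phase (strain YC795, held in the mating pheromone alpha-factor). The MCM2-7 helicase was precipitated through Mcm4-FLAG in G1-phase (strain YC779, also held in alpha-factor), and there were 2 biological replicates of each. The S-phase samples of Orc2 were not analysed here. All strains carry the tag and each protein comes from 1 strain, so that the tag and the strain cannot be told apart from the protein, and the arresting drug cannot be told apart from the phase.

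ORC binds the A-element of an origin, an AT-rich stretch that contains the ARS consensus sequence (ACS, the short motif common to autonomously replicating sequences). In G1, ORC with Cdc6 and Cdt1 loads MCM2-7 as a double hexamer around the DNA, and after replication has begun reloading is blocked until the next G1. In G2, ORC therefore sits at origins that carry no loaded helicase. Whether ORC in G2 occupies bases that ORC left free in G1, and whether MCM2-7 stood there in G1, is the question these positions bear on.

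The distance between a G2-only event and its origin can be read on the DNA itself. The sequences below run from the A-element to the event at 7 of the sites seen in both G2 replicates, and are shown because these are the G2-only positions ranked highest by score in both replicates (ARS1319, whose listed A-element matches the ACS at 6 of 11 bases, was left out). Each is R64 reference sequence, written 5′ to 3′ along the strand of the A-element, with the 11 bp at the listed A-element in capitals and a single capital at the base of each replicate's event.
ARS214, chrII:408029-408100, minus strand: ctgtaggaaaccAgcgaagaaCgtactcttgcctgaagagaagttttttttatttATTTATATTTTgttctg
ARS404, chrIV:46045-46234, minus strand: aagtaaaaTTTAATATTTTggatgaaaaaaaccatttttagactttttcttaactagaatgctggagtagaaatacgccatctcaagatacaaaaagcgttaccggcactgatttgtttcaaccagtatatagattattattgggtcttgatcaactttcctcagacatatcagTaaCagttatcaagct
ARS1106, chrXI:153102-153210, minus strand: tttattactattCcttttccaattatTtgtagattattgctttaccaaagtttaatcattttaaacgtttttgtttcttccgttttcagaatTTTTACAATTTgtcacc
ARS514.5, chrV:301515-301769, plus strand: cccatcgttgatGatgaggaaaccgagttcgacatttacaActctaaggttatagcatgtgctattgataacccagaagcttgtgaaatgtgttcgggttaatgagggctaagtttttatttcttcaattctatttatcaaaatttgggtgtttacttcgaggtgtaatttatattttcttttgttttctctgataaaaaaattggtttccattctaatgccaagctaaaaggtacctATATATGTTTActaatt
ARS1519, chrXV:656696-656851, plus strand: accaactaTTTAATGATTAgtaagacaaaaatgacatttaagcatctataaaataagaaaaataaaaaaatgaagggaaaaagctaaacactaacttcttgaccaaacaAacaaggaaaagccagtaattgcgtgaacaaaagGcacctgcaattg
ARS1118, chrXI:581891-582015, plus strand: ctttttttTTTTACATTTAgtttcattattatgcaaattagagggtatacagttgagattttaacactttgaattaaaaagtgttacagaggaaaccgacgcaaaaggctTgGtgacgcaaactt
ARS1226, chrXII:794189-794300, minus strand: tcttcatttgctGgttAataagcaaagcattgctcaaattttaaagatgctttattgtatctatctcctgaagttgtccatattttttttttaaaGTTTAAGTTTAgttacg
The capitals at the A-element match the ACS at 11 of 11 bases in ARS214 and ARS1118, and at 10 of 11 in ARS404, ARS1106 and ARS514.5. In ARS1519 and ARS1226 they match at 9 of 11. In ARS404, ARS1519 and ARS1118 the events lay downstream of the A-element (positive distances), and in ARS214, ARS1106, ARS514.5 and ARS1226 upstream (negative distances).

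Of the events of G2 replicate 1, 372 of 2178 were G2-only (17.1%), and of replicate 2, 90 of 861 (10.5%). The mean of both shares, 13.8%, was 27.5% with a limit of 25 bp, 4.78% with 100 bp, and 24.6% or 26.0% when G1 replicate 1 or 2 was left out. The replicate lists differed 2.53-fold in length, and 39.3% of the events of G2 replicate 1 and 12.5% of replicate 2 had no event of the other G2 replicate within 50 bp. Under the same rule turned round, 105 of 1170 events of G1 replicate 1 (8.97%) and 142 of 1379 of replicate 2 (10.3%) lay over 50 bp from every ORC event in G2. Of the G2-only events, 211 (45.7%) lay 51 to 75 bp from the nearest ORC event in G1, 87 at 76 to 100 bp, 92 at 101 to 150 bp, 63 at 151 to 250 bp, 8 at 251 to 400 bp and 1 farther. Just outside the limit, at 51 to 60 bp, 83.0% of the G2-only events of replicate 1 and 66.7% of those of replicate 2 had MCM2-7 within 50 bp, against 76.8% and 76.7% of the other events just inside it, at 41 to 50 bp. By chromosome, the G2-only share ran from 7.87% of 89 events on chromosome VI to 21.2% of 156 events on chromosome V.

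Like the other ORC events in G2, the G2-only events were positions within loci that ORC also occupied in G1, with 1 exception. When events of all 6 lists were chained across gaps of up to 250 bp, 355 loci resulted, of which 353 had ORC in G2 and 227 held a G2-only event. Of the 462 events, 461 lay in a locus that also had ORC in G1. The other 2577 ORC events in G2 all lay in such a locus by the rule. Of the 353 loci with ORC in G2, only 1 had none in G1. In turn, only 1 locus had ORC in G1 and none in G2. The paper reports non-origin sites with ORC in G1 and next to none in G2, and such loci were nearly absent here. The lists may hold little beyond origins, so these counts cannot tell whether ORC gained or left whole loci between the phases. In 109 loci there was 1 G2-only event and in 118 there were 2 or more, up to 7. Loci with a G2-only event had a median span of 378 bp, against 341 bp in loci without one. They held a median of 9 ORC events in G2 against 7.5, 7 in G1 against 8, and 11 MCM2-7 events against 10. A locus with more G2 events has more chances to hold a G2-only one, and these medians carry no test. The span and the G2 count also include the G2-only events themselves, which were often the outermost event of the locus. Both contrasts therefore follow in part from the grouping.

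Joined across gaps of up to 50 bp, the G2-only events made 325 positions. Of these, 40 had a G2-only event in both replicates, 238 in replicate 1 only and 47 in replicate 2 only. A G2-only event had an event of the other G2 replicate within 50 bp in 94 of 372 cases in replicate 1 (25.3%, 95% Wilson interval 21.1 to 29.9) and in 55 of 90 in replicate 2 (61.1%, 50.8 to 70.5). Of the other G2 events, 67.9% (65.8 to 70.1) and 90.5% (88.3 to 92.4) were shared in this way, and of all G2 events 60.7% and 87.5%. The difference averaged -36 percentage points (SD 9.37 over the 2 lists). Read the other way, 7.12% and 7.30% of the shared G2 events were G2-only, against 32.4% of the unshared events in either list. By distance from the A-element, the shared portion was 43.5% and 84.2% against 69.6% and 89.4% at 50 to 100 bp. It was 31.1% and 51.6% against 47.2% and 77.1% at 100 to 150 bp. At 150 to 250 bp it was 17.3% and 51.6% against 24.4% and 58.3%. At 50 to 100 bp the intervals were apart in replicate 1 and overlapped in replicate 2. They overlapped in both outer classes, in both replicates. Among all events over 50 and up to 400 bp from the A-element, the shared portion was 26.6% and 59.3% against 53.5% and 81.2%. There the intervals were apart in both replicates. The part of this distance in the difference was not tested. The intervals cover counting error only, since events of 1 locus are not independent.

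The G2-only events had low scores. Their median score was 169 in replicate 1 and 119 in replicate 2, against 289 and 189 for the other events of the same lists. As a percentile of the list, the median was 32.8 and 30.0 for G2-only events, against 55.1 and 52.4 for the others. Among events over 50 and up to 400 bp from an A-element the medians were 34.8 and 31.6 against 44.4 and 41.6. This is a mean difference of -9.72 in place of -22.4. The G2-only share fell along the score, as the plot by score and distance shows. In replicate 1 it was 26.4% of the lowest-scoring events, when the list is split into 4 score classes of near-equal size, then 23.5%, 14.3% and 3.90% in the highest class. In replicate 2 the same shares were 17.3%, 12.1%, 9.91% and 2.35%. Low scores were also found for G1 events over 50 bp from every ORC event in G2. Their median percentile was 19.7 and 23.4, against 53.8 in both replicates for the other G1 events. The score is capped at 1000, and 6 of 372 G2-only events of replicate 1 and 0 of 90 of replicate 2 reached the cap, against 233 of 1806 and 60 of 771 of the others.

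**Figure D1:**
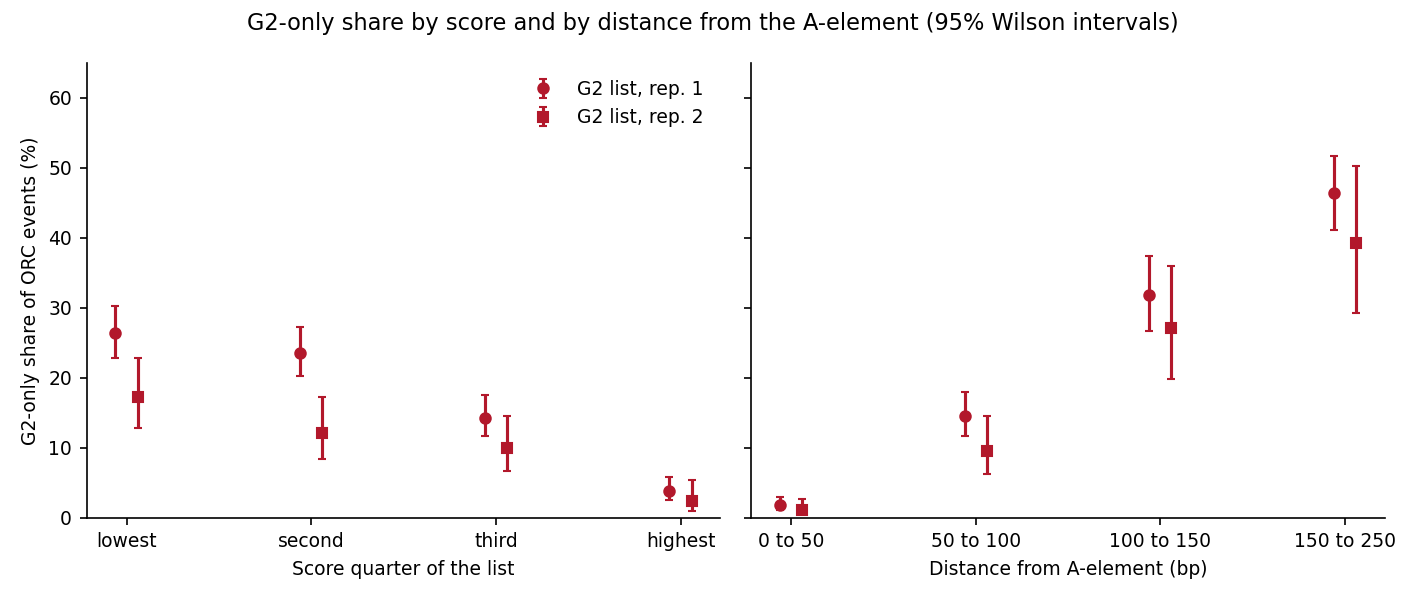
Share of ORC events in G2 that are G2-only (y axis, percent), for each G2 replicate, by score class of the list (left) and by distance from the A-element in bp (right). Bars are 95% Wilson intervals. In replicate 1 the share is 26.4% in the lowest score class and 3.90% in the highest, and 1.83% within 50 bp of the A-element against 46.4% at 150 to 250 bp.

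The 6 G2-only events at the cap were looked up after their values had been seen. They lay at ARS214, ARS409, ARS607, ARS1330 and, with 2 events, ARS913.5, and each had MCM2-7 within 50 bp. So did 96.5% (500 of 518) of the other G2 events in the highest score class of replicate 1, so this is not particular to them. At ARS607, an early origin of chromosome VI between ROG3 and PES4, the event lay 81 bp downstream of the A-element. An event of G2 replicate 2, also at 1000, lay 27 bp from it. The nearest event of G1 replicate 1 scored 422 at 76 bp and that of G1 replicate 2 scored 1000 at 74 bp, and MCM2-7 reached 1000 in both replicates at 32 and 29 bp. The event of G2 replicate 2 was within 50 bp of an ORC event in G1, so that it was not itself G2-only.

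Most G2-only events had an MCM2-7 event of G1 beside them, but fewer than the other ORC events in G2 did. MCM2-7 lay within 50 bp of 267 of 372 G2-only events in replicate 1 (71.8%, 67.0 to 76.1) and of 64 of 90 in replicate 2 (71.1%, 61.0 to 79.5), against 91.6% (90.3 to 92.8) and 93.9% (92.0 to 95.4) of the other events. Over all G2 events these shares were 88.2% and 91.5%. The difference averaged -21.3 percentage points (SD 2.07 over the 2 lists), and -10.4 points when MCM2-7 was sought within 100 bp. Asked of both MCM2-7 replicates at once, the shares were 46.5% and 47.8% for G2-only events and 77.4% and 80.2% for the others. The median distance to MCM2-7 was 23 and 20 bp for G2-only events and 8 and 7 bp for the others. A locus with MCM2-7 held 368 of 372 (98.9%) and 90 of 90 G2-only events, against 1802 of 1806 (99.8%) and 771 of 771 of the others. MCM2-7 events are dense in these loci, with a median of 11 per locus and a median locus span of 378 bp. How often any base of such a locus has MCM2-7 within 50 bp was not computed. The mirrored set, ORC events of G1 over 50 bp from ORC in G2, had MCM2-7 within 50 bp in 70.5% of cases in replicate 1 and 61.3% in replicate 2.

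**Figure D2:**
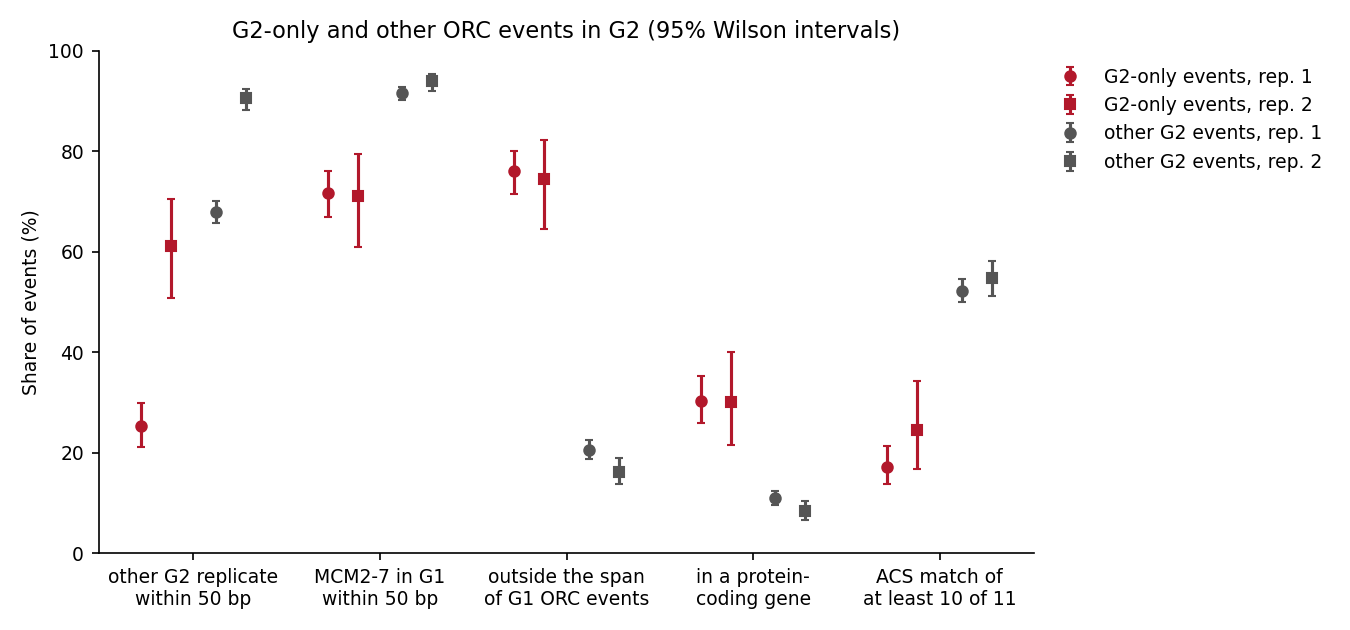
Share of events (y axis, percent) with each of 5 features, for G2-only events (red, left of each pair) and other ORC events in G2 (grey), with replicate 1 as circles, replicate 2 as squares and 95% Wilson intervals. G2-only events have MCM2-7 within 50 bp in 71.8% and 71.1% of cases, against 91.6% and 93.9% for the other events.

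Distance from the A-element moved with the MCM2-7 share. Among events 50 to 100 bp from an A-element, MCM2-7 lay beside 81.2% of G2-only events in replicate 1 and 73.7% in replicate 2, against 93.3% and 94.4% of the others. At 100 to 150 bp the shares were 75.6% and 80.6% against 79.3% and 89.2%, and at 150 to 250 bp 66.7% and 51.6% against 72.8% and 66.7%. The intervals of G2-only and other events were apart at 50 to 100 bp and overlapped in both outer classes, in both replicates. The part of the A-element distance in the overall difference was not tested. By score class of replicate 1, from the lowest to the highest, MCM2-7 lay beside 67.9%, 70.7%, 74.4% and 95.2% (20 of 21) of G2-only events, against 85.6%, 90.7%, 92.1% and 96.5% of the others. In replicate 2 the shares were 78.9%, 60% (15 of 25), 68.2% and 80.0% (4 of 5) of G2-only events, with no order by score, against 89.6%, 91.7%, 94.5% and 99.0% of the others. Among events at or above the median score the difference averaged -20.8 percentage points. By side of the A-element, MCM2-7 lay beside 77.5% and 80.0% of the G2-only events downstream and 67.5% and 60.9% of those upstream, with overlapping intervals. The other G2 events had the same order, with 94.7% and 96.8% downstream and 87.2% and 88.1% upstream.

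**Figure D3:**
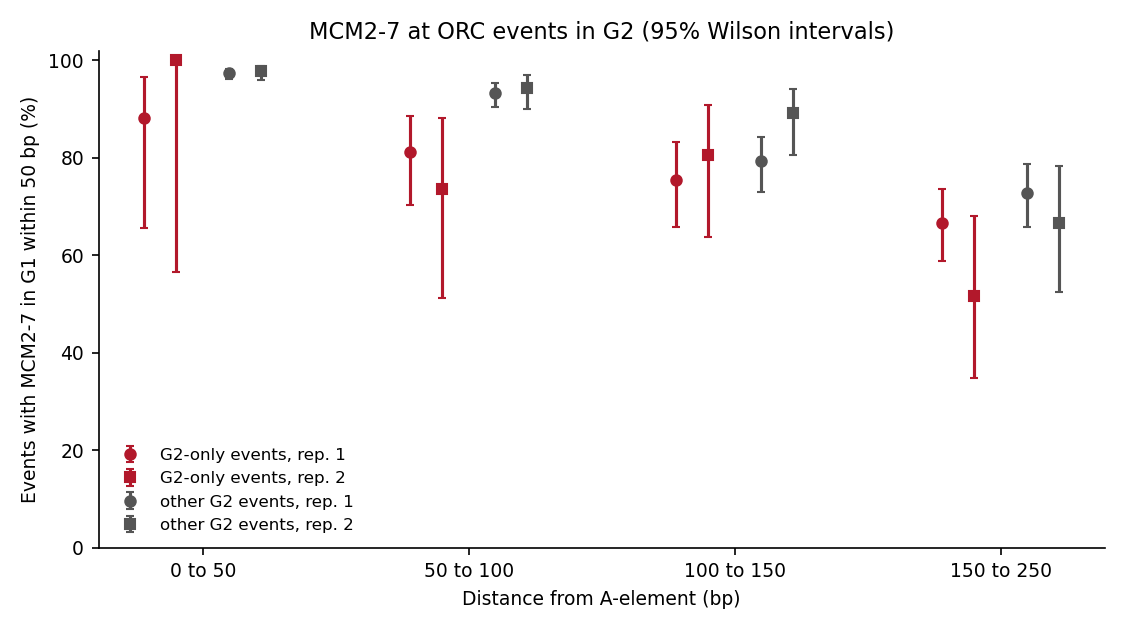
Share of ORC events in G2 with an MCM2-7 event of G1 within 50 bp (y axis, percent) by distance from the A-element (x axis, bp), for G2-only events (red) and other events (grey), circles for replicate 1, squares for replicate 2, bars 95% Wilson intervals. Within 50 bp of the A-element only 17 and 5 G2-only events remain, and at 150 to 250 bp the intervals of the G2-only and the other events overlap.

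Within the locus, the G2-only events lay at the edges. On a scale where 0 is the midpoint of the locus and 1 its end, their median distance from the midpoint was 0.81 in replicate 1 and 0.71 in replicate 2, against 0.36 and 0.34 for the other events. They were the outermost event of the locus in 31.5% and 31.1% of cases, against 4.32% and 3.76%. The mirrored set of G1 lay at the edges too, at a median of 0.90 and 0.89, against 0.35 and 0.34 for the other G1 events. It held the outermost event in 38.1% and 40.8% of cases, against 3.85% and 4.53%. Outside the stretch spanned by the G1 ORC events of the locus lay 76.0% and 74.4% of the G2-only events, against 20.5% and 16.2%. The rest lay in gaps between G1 ORC events. Inside the stretch spanned by the MCM2-7 events of the locus lay 48.6% and 52.2%, against 82.3% and 84.6%. Because ORC in G1 clusters around the A-element, this placing follows in part from the rule. Among events over 50 bp from an A-element the difference in relative distance averaged 0.23, in place of 0.412, and with a limit of 100 bp from ORC in G1 it averaged 0.625.

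The same holds of the A-element, for which 332 positions listed by the study were used, 329 of them with a strand. These positions were partly adjusted by the study with the same data. An A-element lay within 400 bp of 336 of 372 and of 86 of 90 G2-only events, at a median distance of 146 and 128.5 bp, against 46 and 43 bp for the other events. Within 50 bp of an A-element lay 17 (4.57%) and 5 (5.56%), against 50.6% and 55.4%. The G2-only share was 1.83% and 1.16% of events within 50 bp of an A-element, 14.6% and 9.60% at 50 to 100 bp, 31.8% and 27.2% at 100 to 150 bp, and 46.4% and 39.2% at 150 to 250 bp. By side, 51.5% (46.2 to 56.8) and 46.5% (36.3 to 57.0) of G2-only events lay downstream, against 58.3% (56.0 to 60.6) and 63.4% (59.8 to 66.8) of the others. Over 50 bp from the A-element, the shares downstream were 52.4% and 46.9% against 54.4% and 61.0%, with overlapping intervals in both replicates. The difference in share downstream averaged -11.8 percentage points, -4.17 points without G1 replicate 1 and -21.4 points without G1 replicate 2.

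**Figure D4:**
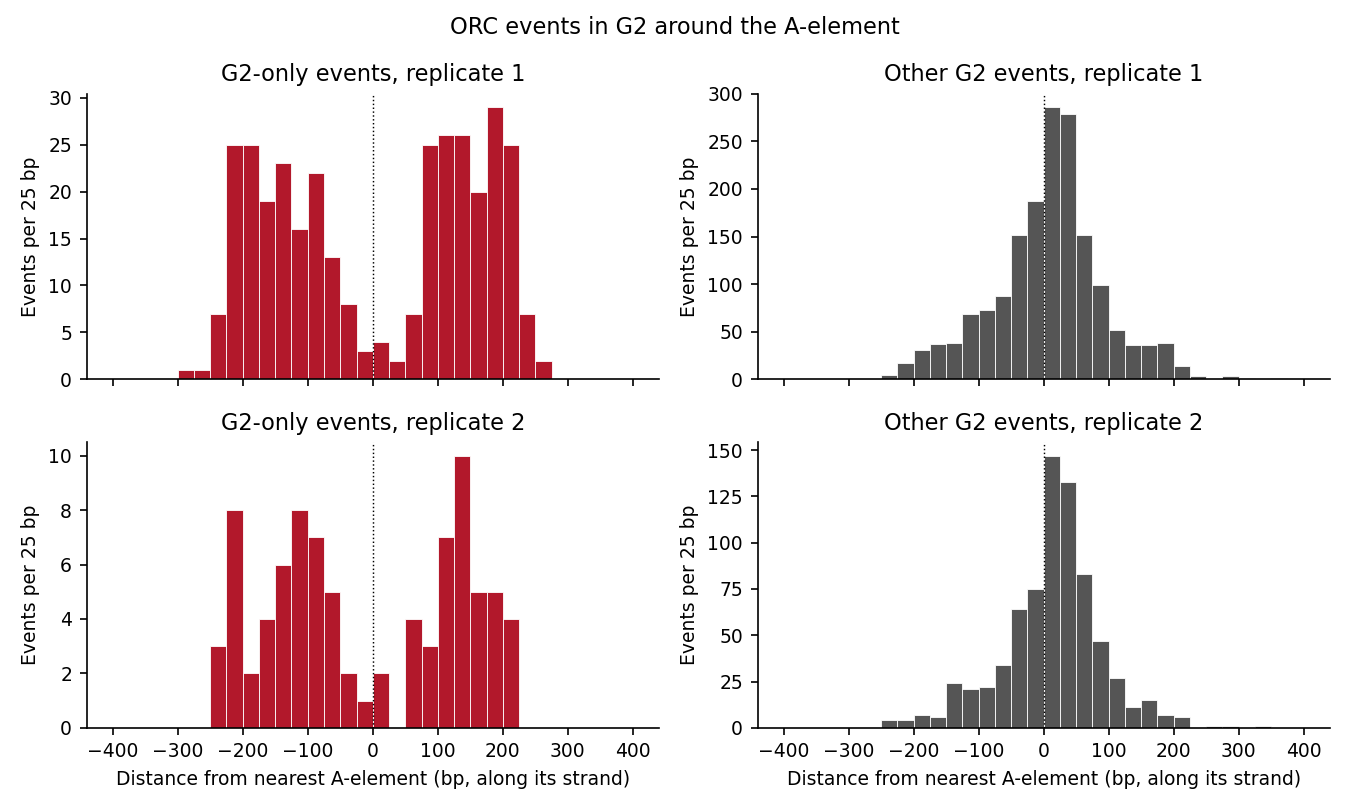
Number of ORC events in G2 per 25 bp (y axis) by distance from the nearest A-element along its strand (x axis, bp, negative upstream), for G2-only events (red, left) and other events (grey, right), replicate 1 above and replicate 2 below. The G2-only events form a flank on either side, with a median distance of 146 and 128.5 bp, and the other events peak at the A-element. The y axes differ between panels.

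Asked per A-element, ORC lay within 50 bp in at least 1 G2 list at 316 of the 332 and in at least 1 G1 list at 312. At 8 of them ORC was found in G2 and in neither G1 list, and at 4 in G1 and in neither G2 list. The same counts were 29 and 27 within 25 bp, and 3 and 2 within 100 bp. They were 2 and 3, in the reverse order, when both replicates of the phase were required. The 8 with ORC in G2 only were identified after the values had been seen. They were ARS221, ARS221.5, ARS431.5, ARS706, ARS1233, ARS1330, ARS1622.5 and ARS1624, and only ARS221 and ARS1330 had an event within 50 bp in both G2 replicates. These 8 were picked by distance from the A-element, so their ORC events in G2 need not be G2-only. The locus of ARS1622.5 held 0 G2-only events, and a G1 event (score 214) lay 51 bp from its A-element. At ARS221 only the event of replicate 1 was G2-only. ARS706 lies between ARO8 and MCM6, the gene of another MCM2-7 subunit. There, ORC in G2 replicate 1 lay 31 bp downstream of the A-element with a score of 124, and the nearest event of replicate 2 lay at -138 bp. The G1 events lay at -107 and 99 bp, and MCM2-7 lay at 10 and -22 bp with scores of 377 and 330.

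ARS1330, between RCE1, a protease of prenylated proteins, and BUL1, a ubiquitin ligase adaptor, had the highest-scoring event of G2 replicate 1 among these 8. In G2, ORC lay 10 bp downstream with a score of 1000 in replicate 1 and 15 bp downstream with 100 in replicate 2. In G1 the nearest events lay at 88 bp with 453 in replicate 1 and at -59 bp with 282 in replicate 2. MCM2-7 lay at 29 bp and 53 bp, at 1000 in both replicates. Within their own lists the G2 events stood at the 94.5 and 20.8 percentiles and the G1 events at the 43.8 and 31.0 percentiles, so that the G2 replicates shared the position but not the rank. At ARS1233, between CAR2 and LSM3, 7 of the 8 ORC events in G2 were G2-only, the most in any locus, and each scored 208 or less. The only G1 events lay at -122 bp (score 268) and -139 bp (score 191), while MCM2-7 had 12 events there.

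**Figure D5:**
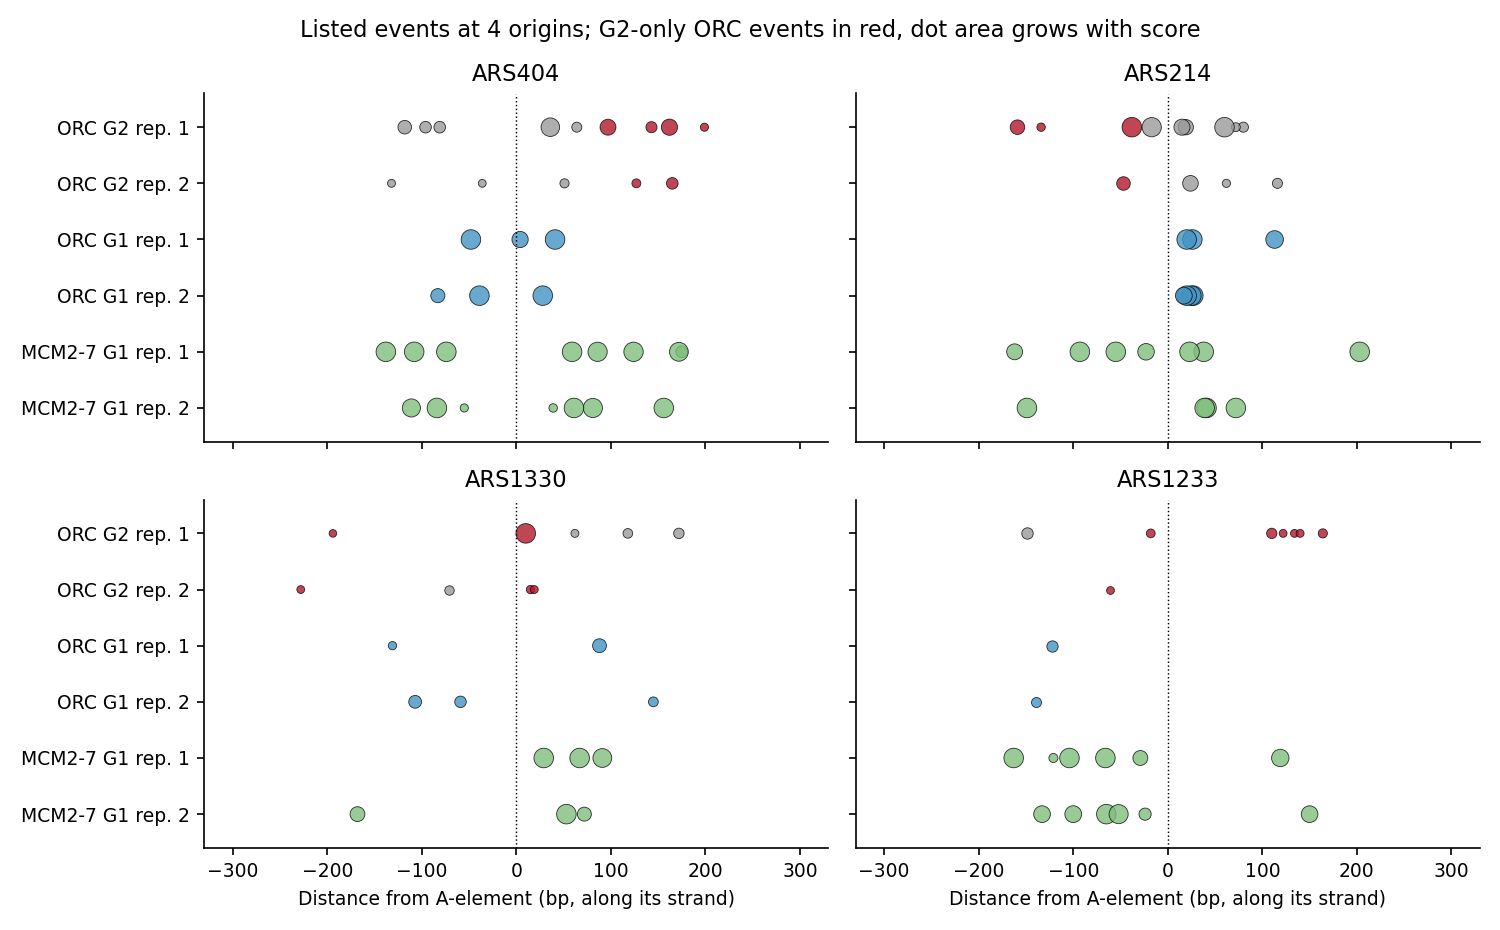
Listed events at ARS404, ARS214, ARS1330 and ARS1233 by distance from the A-element along its strand (x axis, bp), with 1 lane per list (ORC in G2, ORC in G1, MCM2-7 in G1, replicates 1 and 2) and dot area growing with the score. G2-only ORC events are red. At ARS404 they lie at 97 to 199 bp, beyond the last ORC event in G1 at 41 bp and among the MCM2-7 events at 59 to 175 bp.

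Among the 40 positions with a G2-only event in both replicates, the 10 ranked highest by the lower of their score percentiles were looked at one by one. Of these 10, 7 had MCM2-7 within 50 bp, and ARS1106, ARS514.5 and ARS1001 did not. At ARS214, between UBC4, a ubiquitin-conjugating enzyme, and TEC1, a transcription factor of filamentous growth, the G2 events lay at chrII positions 408079 (score 1000) and 408088 (430), at -38 and -47 bp. The nearest G1 events were 58 bp (1000) and 55 bp (713) from the event of replicate 1, and every G1 event within 400 bp lay on the other side of the A-element. MCM2-7 lay 15 bp (691) and 77 bp (1000) away.

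At ARS404, between SSB1, a ribosome-bound chaperone, and HO, the endonuclease of mating-type switching, the G2 events lay at chrIV positions 46060 (score 657) and 46057 (69.8th percentile of its list), 162 and 165 bp downstream. The nearest G1 events reached 1000 in both replicates but were 121 and 134 bp away from the event of replicate 1. MCM2-7 lay 10 bp (918) and 6 bp (1000) from it. The locus held 6 G2-only events of its 14 ORC events in G2, and all 6 lay on the downstream flank shown in the plot of events at 4 origins.

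ARS1519, between YRM1, a regulator of multidrug resistance, and DCS2, had the same order, with G2 scores of 283 and 176 at 97 and 131 bp. Its G1 events at 1000 were 97 and 96 bp from the event of replicate 1, and MCM2-7 at 1000 was 2 and 14 bp away. At ARS1118, beside ECM4, a glutathione transferase, the G2 events scored 235 and 189 at 100 and 98 bp. The G1 events (549 and 1000) were 60 and 70 bp from the event of replicate 1, and MCM2-7 (544 and 1000) was 10 and 6 bp away. At ARS1319, between SHH3 and ASI1, the G2 events scored 475 and 254 and the nearest G1 events, at 1000, were 97 and 84 bp from the event of replicate 1. MCM2-7 was 7 bp (585) and 38 bp (1000) away. No distance from the A-element is given for ARS1319.

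ARS1226, between MID2, a sensor of cell wall stress, and RPS25B, a ribosomal protein gene, had G2-only positions in both replicates at 2 places. The nearer pair lay at -87 bp (650) and -83 bp (163) and the farther pair at -227 bp (222) and -208 bp (254). From the nearer event of replicate 1, MCM2-7 lay 14 bp (1000) and 48 bp (894) away and the G1 events 109 bp (1000) and 64 bp (749). From the farther event of replicate 1, MCM2-7 lay 107 bp (1000) and 19 bp (431) away. One G1 event of replicate 2, at chrXII position 794352, lay between both places.

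The other 3 positions had no MCM2-7 event within 50 bp. At ARS1106, beside ELF1, a transcription elongation factor, the G2 events (330 and 195) lay at -70 and -84 bp, with MCM2-7 at 1000 in both replicates 82 and 76 bp from the event of replicate 1. The G2 events near ARS514.5 lay inside the coding sequence of RNR1, the large subunit of ribonucleotide reductase, at chrV positions 301555 (447) and 301527 (189). The ORC events nearest to the first in G1 were 219 bp (87) and 114 bp (132) away and MCM2-7 was 179 bp (544) and 120 bp (377) away. Within their own lists the G2 events stood at the 70.2 and 52.4 percentiles and these ORC events of G1 at the 3.68 and 12.3 percentiles. The MCM2-7 events stood at the 18 and 15.8 percentiles of theirs. The nearest annotated ARS was 13926 and 13898 bp from these events. At ARS1001, at the left end of chromosome X, the G2 events (209 and 308) lay at positions 101 and 93. The nearest G1 events lay at position 42 (485) in replicate 1 and at position 297 (338) in replicate 2. The locus held 10 ORC events in G1. MCM2-7 lay at 229 and 217 bp (1000 in both) from the event of replicate 1.

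The single G2-only event in a locus without ORC in G1 was at chrVIII position 250570, between PPE1 and PTC7. It was in replicate 1 only, with a score of 92, and the nearest ORC event in G1 was 4698 bp away. The nearest MCM2-7 event, 300 bp away in replicate 1, scored 82. The next 4 events by distance were also in replicate 1 only. A pair at chrX positions 459441 and 459495 (scores 249 and 149) lay in the annotated ARS1017, 384 and 330 bp from a G1 event of score 74, with an MCM2-7 event (502) 57 and 3 bp away. An event in SIT1, a siderophore transporter gene, at chrV position 27813 (156) had its nearest MCM2-7 event 15848 bp away. An event in LSM3, a subunit of the RNA-binding Lsm complexes, at chrXII position 1013960 (143) belonged to the ARS1233 locus, with MCM2-7 (698) 14 bp away. None of these 5 events had an event of the other G2 replicate within 50 bp.

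Taken over all distances from the A-element, the DNA at the G2-only events was more often coding and less often close to the ACS. Of G2-only events, 30.4% (25.9 to 35.2) in replicate 1 and 30.0% (21.5 to 40.1) in replicate 2 lay in a protein-coding gene, against 10.9% (9.55 to 12.4) and 8.30% (6.55 to 10.5) of the others, where 72.8% of all bases of the genome do. Distance from the A-element moved with this share as well. Over 50 bp from the A-element it was 31.3% (26.5 to 36.6) and 28.4% (19.7 to 39.0) for G2-only events, against 16.5% (14.0 to 19.2) and 13.1% (9.80 to 17.3) for the others, with intervals apart in both replicates. At 50 to 100 bp it was 14.5% and 5.26% for G2-only events against 5.68% and 5.59%. At 100 to 150 bp it was 32.2% and 22.6% for G2-only events against 21.2% and 18.1%, and at 150 to 250 bp 38.5% and 48.4% against 33.9% and 29.2%. In each of these narrower classes the intervals overlapped in both replicates. The difference in this share averaged 20.6 percentage points over all events and 7.65 points among events at or above the median score. An annotated ARS held 31.7% and 31.1% of the G2-only events, against 58.2% and 61.3% of the others. In the 101 bp around the event, searched on both strands, a match of at least 10 of 11 bases to the ACS was found at 17.2% (13.7 to 21.4) and 24.4% (16.7 to 34.2) of G2-only events and at 52.3% and 54.7% of the others, beside 9.72% of all 119509 windows of the same length in the genome. The A-element contains the ACS and the rule keeps most G2-only events away from it, so this contrast follows in part from the rule. Over 50 bp from the A-element the shares were 13.8% and 21.0% against 23.1% and 22.8%. There the intervals were apart in replicate 1 and overlapped in replicate 2. The difference in best ACS match averaged -0.685 bases over all events and -0.121 bases over 50 bp from the A-element. The mirrored set of G1 had similar shares. In a gene lay 24.8% and 30.3% of it, against 11.4% and 10.3% of the other G1 events. An ACS match of at least 10 bases was found at 22.9% and 15.5% of it, against 52.5% and 53.0%. The median AT content of the window was 65.3% and 67.3% at G2-only events, 69.3% and 70.3% at the other G2 events, and 61.4% across the genome. A match is a description of the letters and not of a site.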

How the data were processed

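The members and lists were chosen with earlier results of these data known. Per the authors, reads were aligned with Bowtie2 (version 2.3.5) to R64, the S288C sequence, and events were called with ChExMix on each replicate, with tRNA genes and the rDNA left out. Whether duplicate reads were removed is not given in the sources used here. The deposited score of each event is a whole number with a cap of 1000, not normalized between lists and not defined in the sources used here, so single scores are listed as deposited, and levels were compared within a list or as percentiles of it. Read depth per event is unknown, since no counts are listed.

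Distances between events, A-elements, genes and ARS annotations were measured in R64, and loci were chained across gaps of up to 250 bp. With 2 lists against 2, the smallest exact two-sided p is 0.333, so no test was made: values are given per replicate, with 95% Wilson intervals, which cover counting error only. Named positions were those seen as G2-only in both replicates, the 10 highest by the lower score percentile, then members of loci without ORC in G1 and the 5 members farthest from it. The steps were tested on simulated lists. Python 3.11.15 with NumPy 2.4.6, pandas 2.3.3 and Matplotlib 3.10.9 was used. The alternatives were other distances, leaving out each replicate, comparing lists by replicate number, events at or above the median score and shared events only. After the data were seen, both sets were also limited to events over 50 bp from an A-element. This set leaves out events without an A-element with a strand within 400 bp, wherever values over 50 bp from an A-element are given.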

Additional observations from a re-analysis of the deposited data

How the results depend on the processing

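Each value below is the mean over the G2 lists, and a difference is G2-only minus other G2 events. Of 88 alternatives to 9 results, 36 changed the value by less than the SD over the 2 lists (for the count of A-elements, by less than 1.5 times), 52 changed it by more, and 0 turned a direction. The SD rests on 2 lists and for the score percentile was 0.0719, so small shifts count as changes there. Leaving out a G2 list always moves the mean of both lists by less than this SD. Those alternatives were bound to fall among the 36 and say nothing on stability.

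The share of G2-only events, 13.8%, depended most on the rule. It was 27.5% with a limit of 25 bp, 4.78% with 100 bp, 7.75% among events at or above the median score and 7.21% among events shared by both G2 replicates. Without single lists it ran from 10.5% to 26%, with 24.6% without G1 replicate 1 and 26% without G1 replicate 2. With the replicate number as a block (replicate block, each G2 list against the G1 list of the same number) it was 24.7%. Nothing in the labels says that equal numbers share a culture, and under the block each list is set against fewer G1 events.

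With limits of 25 and 100 bp, the differences were -22.6 and -25.3 in score percentile, 0.29 and 0.625 in relative distance from the midpoint, -16.5 and -25.1 points in MCM2-7 share, 14.5 and 30.5 points in the share in genes, and -0.543 and -0.815 bases in the best ACS match. At 100 bp the difference in replicate sharing was -48.7 points. Under the replicate block the differences were -23.7 in percentile, 0.339 in relative distance, -18.1 points in MCM2-7 share and 17.3 points in genes. Among events at or above the median score they were 0.309 in relative distance, 7.65 points in genes and -0.767 bases in the ACS match, and among shared events 0.317, -17.4 points in MCM2-7 share and 24.4 points in genes. The place in the list gave -22.7 in percentile.

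MCM2-7 within 25 bp gave -28.2 points, within 100 bp -10.4 points and in both MCM2-7 lists -31.6 points. Limited to events over 50 bp from an A-element, an alternative added after the data were seen, the differences were -9.72 in percentile, -24.4 points in sharing, 0.23 in relative distance, -16.8 points in MCM2-7 share, 15.1 points in genes and -0.121 bases in the ACS match. The 8 A-elements with ORC in G2 only were 29 within 25 bp, 3 within 100 bp and 2 when both G2 replicates were required. The mirrored count, 4 A-elements with ORC in G1 only, was 27, 2 and, with both G1 replicates required, 3. The order of both counts was thus reversed in the last setting. The cause of these changes was not tested.

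Without single lists the differences ran from -24.5 to -21.6 in percentile, 0.323 to 0.449 in relative distance, -29.1 to -16.3 points in MCM2-7 share, -21.4 to -4.17 points downstream of the A-element and 15.5 to 21.7 points in genes. The difference downstream was -4.17 points without G1 replicate 1, -21.4 points without G1 replicate 2, -6.83 points without G2 replicate 2 and -16.9 points without G2 replicate 1, against -11.8 points with all lists. Sharing cannot be computed without a G2 replicate. Read depth per list is unknown, so an event missing from a list is a position not listed at that depth.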
